A study of Mus musculus with 92 samples.

Results

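The cyclins of the A, B, D and E types, together with the kinases Cdk4 and Cdk6, were followed across single bone marrow progenitors. The 10 genes, Ccna2, Ccnb1, Ccnb2, Ccnd1, Ccnd2, Ccnd3, Ccne1, Ccne2, Cdk4 and Cdk6, were taken by symbol from a deposited table of 23956 genes, and all 10 were rows of it. They were read in 92 cells by sort gate and by the cell state the authors gave each cell. The rule that chose them used no measured value, but the choice was made with earlier results of these data known.

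The cells came from C57BL/6 mice homozygous for Gfi1-R412X (genotype Gfi1-R412X/R412X). The allele is named for a stop codon in GFI1, a repressor that granulocytes need to form. The series' title asks how such a mutation acts in the states that cells pass through on the way to granulocytes. The CD11b+ GMP-P gate gave 47 cells and the GMP gate 45; GMP stands in common usage for granulocyte-monocyte progenitor. Cells of both gates share the genotype, the strain and the enrichment of crushed hindlimb marrow on CD117 beads, and they were separated on a Fluidigm C1 chip. With 0 wild type cells, nothing here measures the mutation, and ages are not given in the labels. Each gate has its own date code and no animal is named, so a gate is 1 sample without a replicate, and gate, date and animal cannot be told apart. No test was made and no p-value computed. Differences describe these cells only, and an SD is the spread of cells, not an error between animals.

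Cells pass through division in an order set by these proteins. The D-type cyclins bind Cdk4 or Cdk6 and start the inactivation of the Rb protein, the brake on entry into the cycle; which of the D cyclins a blood cell uses differs between lineages. The E-type cyclins act with Cdk2 as DNA replication starts, cyclin A2 acts through replication and the phase after it, and the B-type cyclins with Cdk1 carry the cell into mitosis. Neutrophils divide as early precursors and stop dividing as their late granules fill.

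Levels are TPM, the share of a cell's transcripts that a gene takes, corrected for length and scaled to the same total in every cell. Levels of different genes are set side by side on this scale, though how fully each gene's transcripts were captured is not known. A gene was counted as present in a cell above 1 TPM. Genes detected per cell numbered 4143 at the median in CD11b+ GMP-P (1993 to 5743) and 5611 in GMP (2775 to 6612). Read depth is unknown. The neutrophil late granule markers Ltf, Camp, Ngp, Lcn2, S100a8 and S100a9 summed to a median of 179890 TPM in CD11b+ GMP-P and 152.6 TPM in GMP. The 6 monocyte markers (Irf8, Ly86, Csf1r, F13a1, Klf4, Ccr2) summed to a median of 0.67 TPM in CD11b+ GMP-P and 434 TPM in GMP. Itgam, the gene of CD11b, was above 1 TPM in 36 of 47 CD11b+ GMP-P cells and 9 of 45 GMP cells. Erythroid markers had a median sum of 0 TPM in each gate, with Epor at 0 in every cell. In CD11b+ GMP-P the states were Myelo-4 (3 cells), Myelo-2 (15), Myelo-1 (3), Gran-2 (20), Gran-1 (4), Mono (1) and Multi-Lin (1). In GMP they were Gran-2 (2), Gran-1 (6), MP (5), Multi-Lin (5), cMoP (3) and Mono (24). The labels do not say how the states were assigned.

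The D-type cyclin that led in a cell was almost always Ccnd3 in CD11b+ GMP-P, and most often Ccnd2 in GMP. Taking the D cyclin with the most TPM, if above 1 TPM, Ccnd3 led in 44 of 47 CD11b+ GMP-P cells, Ccnd2 in 1, Ccnd1 in 1 and none in 1. In GMP, Ccnd2 led in 27 of 45 cells, Ccnd3 in 17 and Ccnd1 in 1. The summed level of the D cyclins was close in the gates, with a median of 169 TPM in CD11b+ GMP-P and 140 TPM in GMP, so the gates differed more in which D cyclin they held than in how much. The lead was at least 10-fold over the next D cyclin (values plus 1 TPM) in 40 CD11b+ GMP-P cells, 38 of them led by Ccnd3. It was so in 21 GMP cells, 13 led by Ccnd2 and 8 by Ccnd3.

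**Figure D1:**
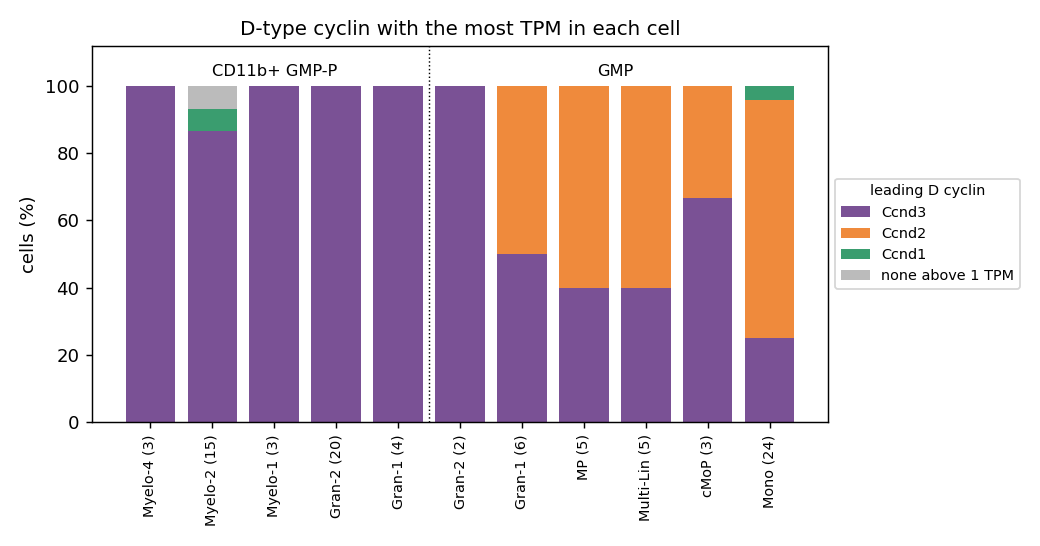
Share of cells (%, vertical axis) led by each D-type cyclin, by state, with CD11b+ GMP-P states left of the dotted line and GMP states right of it; cell numbers stand in brackets, and the single Mono and Multi-Lin cells of CD11b+ GMP-P are left out. Ccnd3 led in all 20 Gran-2 cells and 13 of 15 Myelo-2 cells, and Ccnd2 in 17 of 24 Mono cells.

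Of the 9 members that could be compared between the gates, 1 averaged 2-fold or more above GMP in CD11b+ GMP-P and 4 were 2-fold or more below. Over all 7803 genes compared, 2.72% were at least 2-fold higher and 39% at least 2-fold lower. A count of 4 of 9 lower is therefore near what all genes show. The comparison took the mean of log2(TPM + 1) over cells, for genes detected in no fewer than 25% of cells in either gate or both. This scale understates the change of low genes. Ccne1 was above 0 in too few cells. The median of all genes was -0.74. Among called genes 6.51% were higher in CD11b+ GMP-P, but 20.2% with medians of widely detected genes made equal (median of all genes -0.43), 21.9% by mean TPM, 22.4% without the Myelo states and 45.7% in 20 cells per gate matched on genes detected.

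Ccnd2, which encodes the Cdk4 and Cdk6 partner cyclin D2, was above 1 TPM in few cells from CD11b+ GMP-P. It lay between 0 and 119.6 TPM there with a median of 0, and between 0 and 482.5 TPM in GMP with a median of 47.03 TPM. It was above 1 TPM in 5 of 47 CD11b+ GMP-P cells (10.6%, exact Clopper-Pearson 95% interval 3.55 to 23.1) and in 34 of 45 GMP cells (75.6%, 60.5 to 87.1). These intervals and those that follow cover counting error only. The mean of log2(TPM + 1) was 0.51 ± 1.60 in CD11b+ GMP-P and 4.74 ± 3.19 in GMP (SD of cells), a difference of -4.23, with 32 of the 7803 genes further down. Over the alternatives that difference ran from -6.42 to -2.94.

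Ccnd3, which encodes cyclin D3, a partner of the same kinases, went the other way. It lay between 0 and 991.5 TPM in CD11b+ GMP-P with a median of 151 TPM, and between 0 and 1453 TPM in GMP with a median of 17.9 TPM. The ranges overlapped fully. Ccnd3 was above 1 TPM in 45 of 47 CD11b+ GMP-P cells (95.7%, 85.5 to 99.5) and in 37 of 45 GMP cells (82.2%, 67.95 to 92), so the gates differed more in its level than in its presence. Its mean of log2(TPM + 1) was 6.81 ± 2.27 in CD11b+ GMP-P and 4.31 ± 3.11 in GMP, a difference of 2.50, with 47 of the 7803 genes further up. By mean TPM it was 0.73, under the 2-fold size; the highest single level, 1453 TPM, was in a GMP cell.

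Ccnd1 was rare in both gates. It was above 1 TPM in 3 of 47 CD11b+ GMP-P cells (6.38%, 1.34 to 17.5) and in 12 of 45 GMP cells (26.7%, 14.6 to 41.9), with highest levels of 103.9 TPM in CD11b+ GMP-P and 83.5 TPM in GMP. The difference of mean log2(TPM + 1) was -0.88, close to the median of all genes.

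The leading D cyclin differed between the larger states, which also differ in gate. Among the 20 Gran-2 cells sorted as CD11b+ GMP-P, Ccnd3 lay between 5 and 991.5 TPM with a median of 169 TPM, and it led in all 20. In the 15 Myelo-2 cells it lay between 0.28 and 798.5 TPM, again with a median of 169 TPM, and it led in 13. The medians were equal on the TPM scale, but with medians of widely detected genes made equal Ccnd3 averaged 2.26 higher in Myelo-2 (log2). Ccnd2 was above 1 TPM in 0 of the 21 Myelo-1, Myelo-2 and Myelo-4 cells, in 3 of 20 Gran-2 cells and in 21 of 24 GMP Mono cells. The Mono cells held Ccnd2 between 0 and 482.5 TPM with a median of 76.4 TPM, and Ccnd3 between 0 and 446 TPM with a median of 15.8 TPM. In these larger states the 6 monocyte markers summed to a median of 623 TPM in GMP Mono cells, 1.72 TPM in Gran-2 and 0 TPM in Myelo-2. Smaller states of GMP did not all follow. Multi-Lin, led by Ccnd2 in 3 of 5 cells, had a median of 1.91 TPM. The cMoP cells, led by Ccnd3 in 2 of 3, had a median of 1029.7 TPM.

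The smaller states were split: within GMP, Ccnd3 led in 2 of 3 cMoP cells, 2 of 5 MP cells and 2 of 5 Multi-Lin cells, and Ccnd2 in the others. The few cells of a state found in both gates put gate and state side by side. In the 4 Gran-1 cells of CD11b+ GMP-P, Ccnd2 was at 3.25, 0, 0 and 0 TPM. In the 6 Gran-1 cells of GMP it was at 0.11, 0, 0, 80.9, 31.7 and 243 TPM. Ccnd3 was at 26.95, 90.1, 98.5 and 294 TPM in the Gran-1 cells of CD11b+ GMP-P. In those of GMP it was at 2.45, 236, 1453, 22.1, 1.11 and 216.7 TPM. Ccnd3 led in 4 of 4 Gran-1 cells of CD11b+ GMP-P and 3 of 6 of GMP, and the ranges of both genes overlapped. The single Multi-Lin cell of CD11b+ GMP-P held 119.6 TPM of Ccnd2 and 0 of Ccnd3, and it was the 1 cell of that gate led by Ccnd2. The single Mono cell of CD11b+ GMP-P held 448 TPM of Ccnd3 and 0 of Ccnd2. Both Gran-2 cells of GMP were led by Ccnd3, at 1248 and 9.29 TPM, with Ccnd2 at 0 in each.

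Holding several D cyclins at once was a feature of GMP cells more than of CD11b+ GMP-P cells. At least 2 D cyclins were above 1 TPM in 6 of 47 CD11b+ GMP-P cells (12.8%, 4.83 to 25.7) and in 28 of 45 GMP cells (62.2%, 46.5 to 76.2). Among GMP Mono cells 19 of 24 held at least 2 (79.2%, 57.8 to 92.9), 17 of them Ccnd2 with Ccnd3. So did 3 of 6 Gran-1 and 3 of 5 MP cells of GMP, but 0 of 5 Multi-Lin and 0 of 2 Gran-2 cells of that gate. All 3 D cyclins were above 1 TPM in 1 CD11b+ GMP-P cell and in 10 GMP cells. The 3 cMoP cells, a name commonly used for monocyte-committed progenitors, all held the 3 genes. Ccnd1 was at 76.8, 1.05 and 32.5 TPM in them, Ccnd2 at 63.3, 292.5 and 4.41 TPM, and Ccnd3 at 680.7, 2.24 and 49.5 TPM. In no cMoP cell was a D cyclin missing, while each of the 3 genes varied at least 10-fold between them. In 20 cells per gate matched on genes detected, more than 1 D cyclin was held by 15% of CD11b+ GMP-P cells and 55% of GMP cells. Across the 45 GMP cells the levels of Ccnd2 and Ccnd3 had a Spearman rho of -0.000793, a description over the cells of 1 gate.

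**Figure D2:**
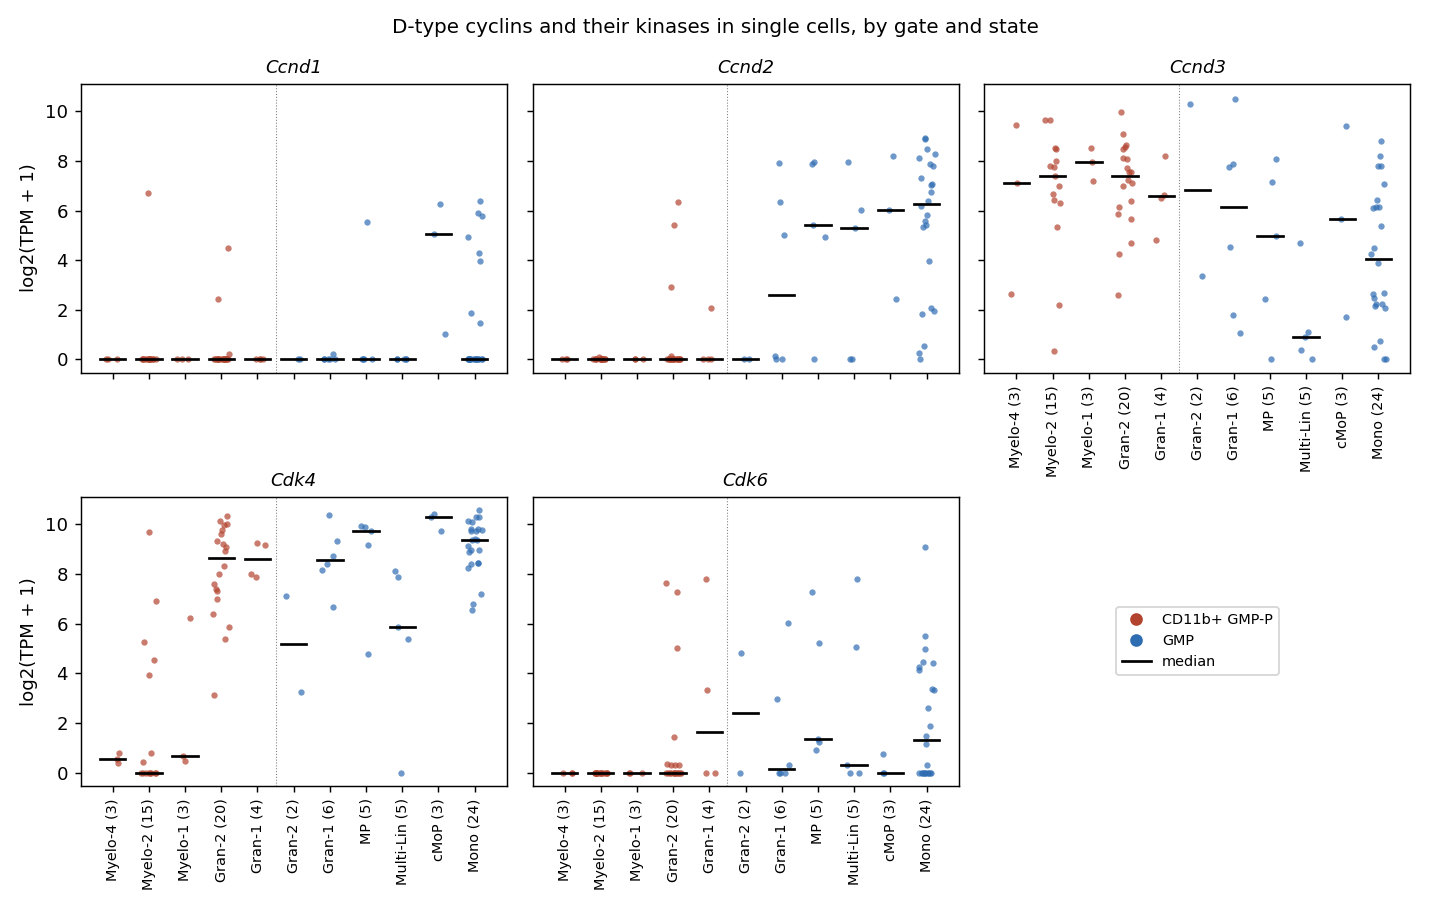
Level of Ccnd1, Ccnd2, Ccnd3, Cdk4 and Cdk6 in single cells (log2(TPM + 1), vertical axis), by state; each point is a cell, black bars are medians, CD11b+ GMP-P stands left of the dotted line and GMP right of it, and the single Mono and Multi-Lin cells of CD11b+ GMP-P are left out. Ccnd2 is at or near 0 in the Myelo states and high in Mono, and Cdk4 is low in most Myelo cells and high in nearly all others.

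Cdk4 was present in nearly every cell outside the Myelo states. It was above 1 TPM in 32 of 47 CD11b+ GMP-P cells (68.1%, 52.9 to 80.9) and in 44 of 45 GMP cells (97.8%, 88.2 to 99.9). It lay between 0 and 1309 TPM in CD11b+ GMP-P with a median of 120.2 TPM, and between 0 and 1537 TPM in GMP with a median of 563 TPM. The mean of log2(TPM + 1) was 5.48 ± 3.96 in CD11b+ GMP-P and 8.49 ± 2.08 in GMP, a difference of -3.01. Without the 21 Myelo cells that difference was -0.14, in cells matched on genes detected -0.18, and by mean TPM of all cells -0.97, each under the 2-fold size. Matching left 3 Myelo cells, so Myelo state and genes detected cannot be told apart here.

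Within CD11b+ GMP-P, Myelo-2 cells were set against Gran-2 cells. The 4 primary granule genes Elane, Mpo, Prtn3 and Ctsg summed to a median of 10.9 TPM in Myelo-2 and 62047 TPM in Gran-2, and the 6 late granule genes to 511769 TPM in Myelo-2 and 148261 TPM in Gran-2. Of 7 members compared, 3 were at least 2-fold lower in Myelo-2 and 0 higher. Over all 7334 genes 53.8% were at least 2-fold apart, nearly all of them lower in Myelo-2. A count of 3 of 7 is therefore near what all genes show. The median of all genes was -1.04. Of called genes 4.86% were higher in Myelo-2, against 17.2% by mean TPM and 30.9% with medians of widely detected genes made equal (median of all genes -0.46). At the median 2936 genes were detected in Myelo-2 and 4595 in Gran-2, and the 10 primary and late granule markers together made up 51.2% of a Myelo-2 cell's TPM and 21.4% of a Gran-2 cell's.

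Cdk4 was the member that stood far from that background. In the 15 Myelo-2 cells it was listed at 0 in 8, under 1 TPM in 2, and at 14.1, 22.5, 37.2, 120.2 and 830.6 TPM in the other 5. In the 20 Gran-2 cells it was above 1 TPM in all 20, between 7.82 and 1309 TPM with a median of 408 TPM. The ranges overlapped through the Myelo-2 cells that held Cdk4. The mean of log2(TPM + 1) was 2.10 ± 3.16 in Myelo-2 and 8.15 ± 1.90 in Gran-2, a difference of -6.04, and 34 of the 7334 genes lay lower. It ran from -7.99 to -2.83 over the alternatives, past 2-fold in each. The 3 Myelo-4 cells held Cdk4 at 0.31, 0.47 and 0.75 TPM and the 3 Myelo-1 cells at 0.60, 0.37 and 74.2 TPM.

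Fewer genes per cell moved with the lower Cdk4, and their part was not tested. The 2 Gran-2 cells with no more genes than the richest Myelo-2 cell (3257 genes) were of 3131 and 2629 genes, and they held Cdk4 at 126.2 and 252.4 TPM. Hprt, a housekeeping gene, differed in the same way, with a median of 0.54 TPM in Myelo-2, 478 TPM in Gran-2 and a difference of -5.94. Actb and Gapdh stayed above 1 TPM in every Myelo-2 cell, with medians of 21851 and 1524 TPM. Tspan31, which lies on the opposite strand and overlaps Cdk4, was above 1 TPM in 1 of 15 Myelo-2 cells and 15 of 20 Gran-2 cells. The labels state no strand for the counting, so reads of that pair cannot be told apart. Across the 47 cells of the gate, the genes most like Cdk4 among 6115 included Srgn, the granule proteoglycan (Spearman rho 0.75), and Rpl24, a ribosomal protein gene (0.73). These rhos are descriptions over cells that share a gate and differ in genes detected.

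The Cdk4 promoter is shown because it carries an unusual run of E-boxes, the letters CACGTG read by MYC and related factors, printed in capitals. RefSeq's start on GRCm38.p6 was used with 200 bases before and 20 after it, 5′ to 3′ on the gene's strand. Promoters were found for 6 of the 10 members. The window of Cdk4 is chr10:127063335-127063554 on the plus strand:
Cdk4: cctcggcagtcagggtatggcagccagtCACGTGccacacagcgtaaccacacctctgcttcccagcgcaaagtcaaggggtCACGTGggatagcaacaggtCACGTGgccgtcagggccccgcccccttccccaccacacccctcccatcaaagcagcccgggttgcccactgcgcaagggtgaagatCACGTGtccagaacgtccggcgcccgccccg
CACGTG stands 4 times, starting 172, 118, 98 and 11 bases before the start. The word reads the same on both strands. At least 1 copy was in 5.81% of 32851 promoters of this length, and at least 3 in 0.0609%. The other 5 members with a promoter had none. A match of letters is a description and shows no binding.

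Cdk6 was the minor kinase. It was above 1 TPM in 7 of 47 CD11b+ GMP-P cells (14.9%, 6.20 to 28.3) and in 22 of 45 GMP cells (48.9%, 33.7 to 64.2), with a median of 0 TPM in CD11b+ GMP-P and 0.88 TPM in GMP. The difference of mean log2(TPM + 1) for Cdk6 was -1.33, and -0.71 without the Myelo cells. Cdk6 was listed at 0 in all 21 Myelo cells, and above 1 TPM in 4 of 20 Gran-2 cells. It exceeded Cdk4 in 2 of the 32 CD11b+ GMP-P cells with either kinase (6.25%, 0.766 to 20.8), both of them Gran-2. It exceeded Cdk4 in 0 of 44 GMP cells, a count that allows up to 6.82% by the limit of 3 cells and 8.04% by the exact interval. In every GMP cell with a kinase, Cdk4 was therefore the higher, whichever D cyclin led.

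The share of cells with a mitotic cyclin was close in the gates over all cells and further apart in matched cells, with overlapping intervals in both. Ccna2, Ccnb1 or Ccnb2 was above 1 TPM in 38 of 47 CD11b+ GMP-P cells (80.9%, 66.7 to 90.9) and in 38 of 45 GMP cells (84.4%, 70.5 to 93.5). In 20 cells per gate matched on genes detected the order turned, with 90% of CD11b+ GMP-P cells (68.3 to 98.8) and 70% of GMP cells (45.7 to 88.1), and the intervals again overlapped. A cyclin transcript does not by itself place a cell in a phase. By state the shares ran over the whole scale. They were 4 of 4 in Gran-1, 19 of 20 in Gran-2, 12 of 15 in Myelo-2, 3 of 3 in Myelo-1 and 0 of 3 in Myelo-4 cells of CD11b+ GMP-P. In GMP they were 6 of 6 in Gran-1, 5 of 5 in MP, 3 of 3 in cMoP, 21 of 24 in Mono, 3 of 5 in Multi-Lin and 0 of 2 in Gran-2. With so few cells per state, most neighbours in that order have overlapping intervals.

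Ccnb1, which carries Cdk1 into mitosis, lay between 0 and 1241 TPM in CD11b+ GMP-P with a median of 0.41 TPM, and between 0 and 1513 TPM in GMP with a median of 36.2 TPM. It was above 1 TPM in 22 of 47 CD11b+ GMP-P cells (46.8%, 32.1 to 61.9) and in 32 of 45 GMP cells (71.1%, 55.7 to 83.6). The difference of mean log2(TPM + 1) was -1.23, but 0.07 by mean TPM and 0.80 in matched cells, so its direction depended on the setting. Ccnb2, the other B cyclin of dividing cells, was above 1 TPM in 29 of 47 CD11b+ GMP-P cells (61.7%, 46.4 to 75.5) and in 33 of 45 GMP cells (73.3%, 58.1 to 85.4), with medians of 36.2 TPM in CD11b+ GMP-P and 74.9 TPM in GMP. Its difference was -0.40. Ccna2 was above 1 TPM in 26 of 47 CD11b+ GMP-P cells (55.3%, 40.1 to 69.8) and in 22 of 45 GMP cells (48.9%, 33.7 to 64.2), with a difference of 0.49. In matched cells Ccna2 was at 2.26 and Ccnb2 at 1.33.

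The B cyclin promoters are shown because both hold repeated CCAAT boxes and a CHR word, the elements through which cell cycle genes are known to be controlled late in the cycle. Capitals mark CCAAT and the CHR words TTTGAA or TTTAAA, each searched on both strands, in the same window as for Cdk4. Ccnb1 is at chr13:100786467-100786686 and Ccnb2 at chr9:70421535-70421754, both on the minus strand:
Ccnb1: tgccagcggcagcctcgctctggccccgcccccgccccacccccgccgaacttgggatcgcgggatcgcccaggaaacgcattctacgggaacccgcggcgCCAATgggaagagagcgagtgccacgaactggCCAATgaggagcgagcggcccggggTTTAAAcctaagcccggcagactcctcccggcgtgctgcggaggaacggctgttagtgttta
Ccnb2: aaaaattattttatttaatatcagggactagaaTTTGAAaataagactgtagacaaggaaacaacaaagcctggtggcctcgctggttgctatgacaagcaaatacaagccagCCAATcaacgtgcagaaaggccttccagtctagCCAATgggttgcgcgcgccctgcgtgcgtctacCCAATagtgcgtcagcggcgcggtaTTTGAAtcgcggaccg
CCAAT starts 99 and 67 bases before the start in Ccnb1, and 87, 54 and 21 bases before it in Ccnb2. At least 1 was in 31% of all promoters, at least 2 in 8.63% and at least 3 in 2.28%. A CHR word starts 42 bases before the start in Ccnb1, and 167 before and 5 after it in Ccnb2, and 21.3% of promoters held at least 1. The words were not limited to the B cyclins. Ccne1 held a CHR word 15 bases before its start, and 1 Ccnd3 promoter a CCAAT box 108 bases before. Over cells, the levels of Ccnb1 and Ccnb2 had a Spearman rho of 0.31 in CD11b+ GMP-P and 0.23 in GMP.

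**Figure D3:**
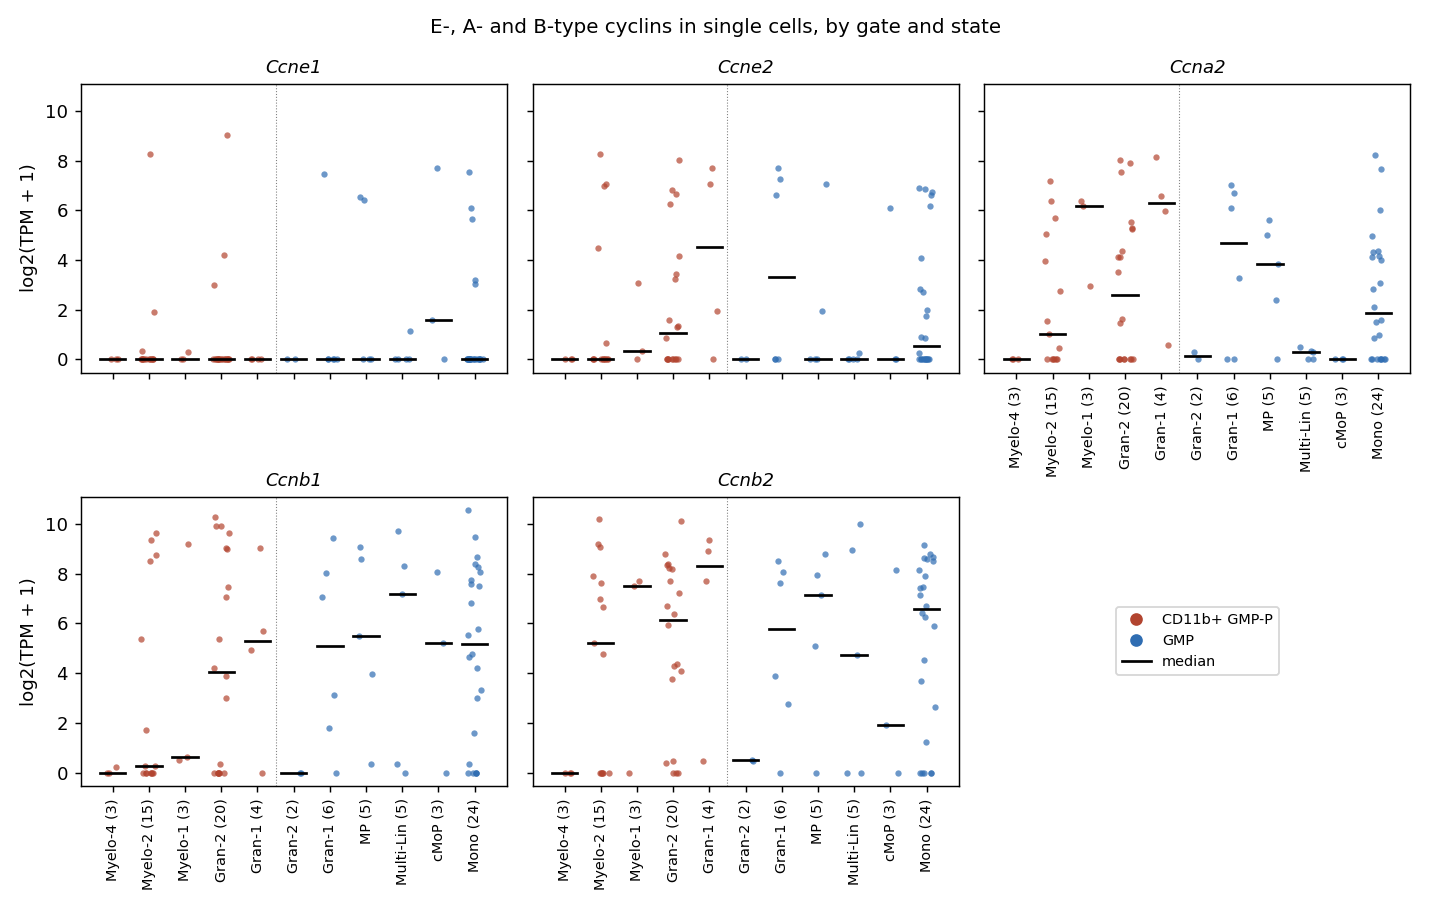
Level of Ccne1, Ccne2, Ccna2, Ccnb1 and Ccnb2 in single cells (log2(TPM + 1), vertical axis), by state; each point is a cell, black bars are medians, CD11b+ GMP-P stands left of the dotted line and GMP right of it, and the single Mono and Multi-Lin cells of CD11b+ GMP-P are left out. In most states the cells of the B cyclins spread from 0 to high levels, while the 3 Myelo-4 cells and the 2 Gran-2 cells of GMP stay under 1 TPM.

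Many Myelo-2 cells held B cyclins with Cdk4 at or under 1 TPM. A B cyclin was above 1 TPM in 10 of 15 Myelo-2 cells, and in 7 of these 10 Cdk4 was at 0 or, in 1 cell, at 0.35 TPM. In those 7 cells Ccnb1 was at 2.30, 661, 795.4, 0, 429.6, 368 and 39.9 TPM. Ccnb2 was at 197.9, 531.5, 0, 36.2, 26.1, 241.5 and 1185 TPM in the same order. The levels were high in most of them, not traces, and between 12 and 17 of 25 other mitosis genes (median 15) were above 1 TPM in each. With 1 Myelo-1 cell that made 8 CD11b+ GMP-P cells with a B cyclin and no Cdk4 above 1 TPM. The count was 0 of the 38 GMP cells with a B cyclin, but 44 of 45 GMP cells held Cdk4, so it could hardly be otherwise. Within Myelo-2 a B cyclin was in 7 of 10 cells without Cdk4 above 1 TPM and 3 of 5 with it. Over all CD11b+ GMP-P cells it was in 8 of 15 without and 26 of 32 with. Ccnd3 was present in all 7 Myelo-2 cells, between 3.62 and 368 TPM, so they held a D cyclin without Cdk4 or Cdk6 above 1 TPM. A transcript at 0 in a single cell can be one that was missed.

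**Figure D4:**
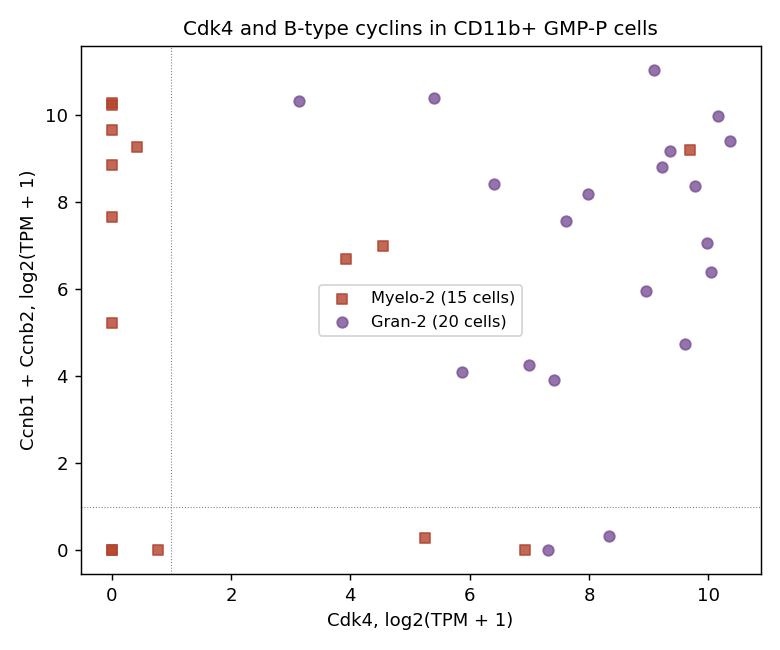
Cdk4 (horizontal axis) against the sum of Ccnb1 and Ccnb2 (vertical axis), both as log2(TPM + 1), in the 15 Myelo-2 and 20 Gran-2 cells of CD11b+ GMP-P; each point is a cell and dotted lines mark 1 TPM. Of the Myelo-2 cells, 7 sit at the upper left, with a B cyclin and no Cdk4 above 1 TPM. All 20 Gran-2 cells held Cdk4 above 1 TPM, so none could lie there.

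Between Myelo-2 and Gran-2 the other members differed little beyond the median of all genes on the TPM scale. Ccnb1 differed by -1.53 (-0.50 at the nearest to 0 over the alternatives), Ccna2 by -0.67, Ccnb2 by -0.66, Ccne2 by -0.36 and Ccnd3 by -0.26 in mean log2(TPM + 1). With medians of widely detected genes made equal, Ccna2 was at 0.67, Ccnb2 at 0.75, Ccne2 at 0.725 and Ccnd3 at 2.26. The direction of these genes thus depended on the setting. Cdk6 was listed at 0 in every Myelo-2 cell. The 3 Myelo-4 cells stood apart from most Myelo-2 cells. Ccnd3 was at 137, 5.30 and 692 TPM, while Ccna2 and Ccnb2 were at 0. In each, 0 or 1 of the 25 mitosis genes was above 1 TPM. They had 2148, 2192 and 2319 genes detected, within the range of Myelo-2. However, the 12 Myelo-2 cells with a mitotic cyclin had 2543 genes or more. Myelo-2 cells of 1993 and 2082 genes likewise held Ccna2, Ccnb1 and Ccnb2 at 0. The part of genes detected was not tested.

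**Figure D5:**
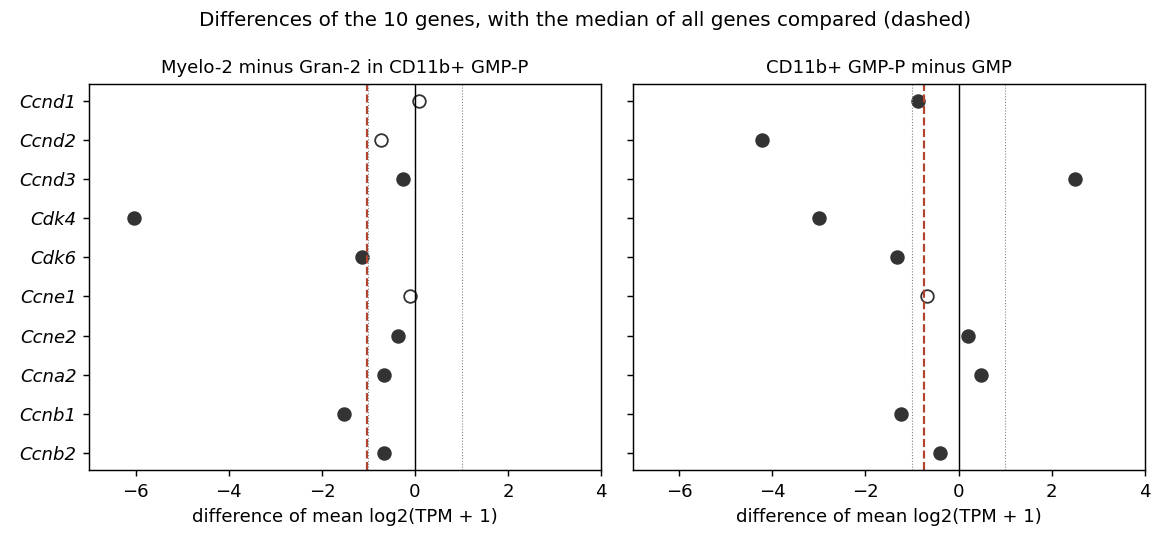
Difference of mean log2(TPM + 1) (horizontal axis) for the 10 genes, Myelo-2 minus Gran-2 on the left and CD11b+ GMP-P minus GMP on the right; open circles are genes above 0 in too few cells to be compared, the dashed line is the median of all genes and dotted lines mark 2-fold. Cdk4 lies far left in both panels, Ccnd2 at -4.23 and Ccnd3 at 2.50 in the right one.

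The E-type cyclins were found in fewer cells than the mitotic ones. Ccne1 or Ccne2 was above 1 TPM in 21 of 47 CD11b+ GMP-P cells (44.7%, 30.2 to 59.9) and in 23 of 45 GMP cells (51.1%, 35.8 to 66.3). In matched cells the order turned, with 50% of CD11b+ GMP-P cells and 40% of GMP cells. Ccne2 was above 1 TPM in 20 CD11b+ GMP-P cells and 16 GMP cells, with highest levels of 304 TPM in CD11b+ GMP-P and 207 TPM in GMP, and its difference was 0.20. Ccne1 was above 1 TPM in 5 CD11b+ GMP-P cells and 11 GMP cells, up to 521 TPM in CD11b+ GMP-P and 208 TPM in GMP. A mitotic cyclin was present in 17 of 21 CD11b+ GMP-P cells with an E cyclin and 21 of 26 without one, so the shares hardly differed. In GMP it was present in 22 of 23 cells with an E cyclin and 16 of 22 without. Over all cells of a gate, more DNA replication genes were present in cells with an E cyclin, but not in every state. In CD11b+ GMP-P, cells with an E cyclin had a median of 17 of 24 replication genes above 1 TPM and cells without one 10, but they also had more genes detected (4571 and 3146). In GMP the medians were 21 with an E cyclin and 18 without, with medians of 5692 and 5273 genes detected. Among GMP Mono cells the median was 20 both in the 13 cells with an E cyclin and in the 11 without. Among Gran-2 cells of CD11b+ GMP-P it was 18 with and 13.5 without. The part of genes detected was not tested. The genes most like Ccne2 over the CD11b+ GMP-P cells were Lig1, the replicative DNA ligase (Spearman rho 0.57), Timeless, of the replication fork (0.57), and Gapdh (0.56).

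Mitotic cyclins likewise marked cells with many mitosis genes. In CD11b+ GMP-P the 38 cells with one had a median of 15 of 25 mitosis genes above 1 TPM, and the 9 without had 1. In GMP the medians were 14 with and 3 without. The cells with one also had more genes detected, 4434 against 2319 in CD11b+ GMP-P and 5688 against 3992 in GMP, and the part of this was not tested. The genes most like Ccnb1 were Gas2l3 (Spearman rho 0.71), Bora, an activator of Aurora A (0.70), and Kif20a, a kinesin of cytokinesis (0.70), over the CD11b+ GMP-P cells. Over the GMP cells they were Tuba1b (0.65), Mki67 (0.64) and Ube2c (0.64). Ccna2 and Ccnb1 had a rho of 0.58 in CD11b+ GMP-P and 0.48 in GMP.

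Within GMP, Gran-1, Multi-Lin and MP cells were each set against the 24 Mono cells, which all 3 comparisons share. Of 9 members compared in Gran-1, 3 were at least 2-fold higher and 2 lower, against 34.8% of 8601 genes at least 2-fold apart. Ccnd2 differed by -2.25 and Ccnd1 by -1.41, while Ccnd3 was at 1.42, Ccne2 at 1.57 and Ccna2 at 1.31. These 2 states share a gate and a date code, and each of the D cyclin differences stayed past 2-fold in all 3 alternatives. Cdk4 hardly differed (-0.49), with 101.6 to 1333 TPM in Gran-1 and 94.2 to 1537 TPM in Mono. By mean TPM Ccna2 was at 0.79. With 6 Gran-1 cells, each value turns on single cells.

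In the 5 Multi-Lin cells 6 of 9 members were at least 2-fold lower than in Mono and 0 higher, against 53.4% of 8315 genes at least 2-fold apart and a median of -0.81. Of called genes 17.6% were higher in Multi-Lin, 27.4% by mean TPM and 33% with medians of widely detected genes made equal. Cdk4 was at 275.6, 40.7, 0, 56.7 and 237.9 TPM in the Multi-Lin cells, and between 94.2 and 1537 TPM with a median of 668 TPM in Mono, a difference of -3.66. The ranges overlapped in part. Ccnd3 was at 25.2, 1.15, 0, 0.30 and 0.87 TPM in Multi-Lin, a difference of -2.76 from Mono, and Ccnd2 differed by -1.63 (-0.83 at the nearest to 0 over the alternatives). Ccna2 stayed under 1 TPM in all 5 Multi-Lin cells (-2.31), and so did Ccne2 (-1.98), yet 3 of the 5 held a B cyclin, with Ccnb1 at 144, 839 and 316 TPM and Ccnb2 at 499, 25.6 and 1026 TPM. The basophil and mast cell markers Cpa3, Ms4a2, Mcpt8 and Gata2 summed to between 188.5 and 6001 TPM in Multi-Lin and between 0 and 344 TPM in Mono. Genes detected were also fewer, a median of 3634 in Multi-Lin and 5624 in Mono. The part of either was not tested.

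In the 5 MP cells 2 of 10 members were at least 2-fold higher than in Mono and 0 lower, against 34% of 8553 genes at least 2-fold apart. Of called genes 61.4% were higher in MP, and 33.7% by mean TPM. Ccne1 was at 83.8, 0, 0, 91.4 and 0 TPM in MP, and above 1 TPM in 5 of 24 Mono cells, a difference of 1.52. Cdk6 was at 155, 1.53, 36.6, 0.88 and 1.35 TPM in MP, and above 1 TPM in 13 of 24 Mono cells, a difference of 1.08, which was under 2-fold by mean TPM (0.38) and with equal medians (0.95). Ccnd2 (-0.26), Ccnd3 (0.35) and Cdk4 (-0.41) were near the Mono level.

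Around the members, 8 lists of cell cycle and housekeeping genes gave the setting. The Cdk inhibitors, which hold the cyclin kinases in check, were mostly too rare to compare, with 2 of 7 assessed between the gates. Cdkn2d, which encodes p19-INK4D, an inhibitor of Cdk4 and Cdk6, was above 1 TPM in 28 of 47 CD11b+ GMP-P cells and 15 of 45 GMP cells, a difference of 2.10. Cdkn1b, the gene of p27, was at 0.75. Cdkn2c, which encodes p18-INK4C of the same family, was above 1 TPM in 6 of 15 Myelo-2 cells and 1 of 20 Gran-2 cells, a difference of 2.38, and Cdkn2d was at 1.42 there. Cdk4, which both proteins bind, was listed at 0 in 8 of those 15 Myelo-2 cells. Of 11 Rb family and E2F genes 1 reached the 2-fold size upward in CD11b+ GMP-P and 2 downward. E2f2 was above 1 TPM in 16 of 47 CD11b+ GMP-P cells and 1 of 45 GMP cells (1.40). E2f6 was at -1.47 and E2f4 at -1.43. Between Myelo-2 and Gran-2, 8 genes of this list were compared, with 2 at least 2-fold higher in Myelo-2 and 1 lower. Over all genes 2.62% were higher and 51.2% lower. Rb1 (1.36) and E2f8, a repressor E2F (2.24), were the higher, and Tfdp1 (-1.75) was the lower.

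The replication and mitosis lists parted in their counts. Of 24 DNA replication genes 14 were 2-fold or more lower in CD11b+ GMP-P and 0 higher, with a median of -1.48, beside 39% lower and 2.72% higher over all genes. Rpa2, a subunit of the single-strand binding protein, was at -3.01, and the helicase genes Mcm2, Mcm6 and Mcm4 at -2.75, -2.74 and -2.73. Of 25 mitosis genes 3 were higher and 0 lower, with a median of 0.39: Top2a (1.71), Prc1 (1.41) and Mki67 (1.16). Between Myelo-2 and Gran-2, 21 of 23 replication genes lay 2-fold or more down and 0 up (median -1.88), against 5 lower and 2 higher of 25 mitosis genes (median -0.16); over all genes 51.2% were lower and 2.62% higher. Mcm3 was at -3.78 and Rpa2 at -3.56 there, while Mki67 was at 1.23 and Ndc80, of the kinetochore, at 1.14. Aurkb, the Aurora B kinase, was at -2.83. The medians of all genes were -0.74 and -1.04 in these 2 comparisons.

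The remaining lists had medians between -1.11 and -0.53, around that of all genes, and their counts are to be read against the same 39% lower and 2.72% higher. Of 11 other cell cycle kinases and activators 5 reached the 2-fold size downward in CD11b+ GMP-P and 0 upward (median -0.58), with Ccnh, the cyclin of the Cdk-activating kinase, at -1.45, Mnat1 at -1.24 and Cks1b at -1.16. Cdk1, the partner of the B cyclins, was at 0.89. Of 15 genes of cyclin destruction 4 were lower and 1 higher (median -0.66), with Skp1a at -1.80, Cdc20, which activates the anaphase-promoting complex, at -1.61, Cul1 at -1.47 and Fbxo5, an inhibitor of that complex, at 1.22. Of 10 other cyclins 2 were lower (median -0.53), Ccnl1 at -1.91 and Ccnc at -1.11. Of 8 housekeeping genes 5 were lower (median -1.11), among them Hprt at -1.72 and B2m at -1.16.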

How the data were processed

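Each of 92 samples is 1 cell, 47 of the CD11b+ GMP-P gate and 45 of GMP. Per the labels' protocols, cDNA was made with a SMARTer kit on a Fluidigm C1 chip and libraries with Nextera XT; molecular identifiers are not named. Bowtie2, RSEM and the build mm9 are named, without versions, per the submitters' processing notes. The authors deposited log2 values, which on the linear scale are TPM plus 1. A second deposited file holds the authors' state of each cell, by a method the labels do not state. The table held 0 columns of other samples, no gene name came up again and 0 cells were identical. All cells were kept, and doublets were not called.

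TPM keeps no read depth. Differences are of mean log2(TPM + 1), pseudocount 1, for genes detected in no fewer than 25% of cells in either group or both, with a 2-fold size rule. Shares carry exact Clopper-Pearson 95% intervals, and a share of 0 a limit of 3 cells. The calculation was tested on simulated data. Likeness is Spearman's rho over the cells of a gate. The members and the 8 gene lists (117 genes) were chosen with earlier results of these data known. Named were the 10 members, up to 4 genes per list with the largest difference, and per member the 3 genes most like it; some are left out for length, and a few items are not reported here. Other genes (Actb, Tspan31, Itgam, Rb1, Tfdp1, Cdk1, Cdkn2c, E2f8, Mcm3, Ndc80, Aurkb) were named after their values were seen. Promoters are RefSeq's on GRCm38.p6, not the mm9 of the values. Python 3.11.15, pandas 2.3.3, numpy 2.4.6 and scipy 1.17.1 were used. Genes that overlap a member on the opposite strand are Tspan31 (Cdk4), Exosc9 (Ccna2), Bysl (Ccnd3) and Ints8 (Ccne2); the labels state no strand.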

Additional observations from a re-analysis of the deposited data

How the results depend on the processing

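Of 21 member differences past 2-fold, 13 stayed past it under every alternative run and 1 changed sign: Ccnb1 between the gates, at 0.0669 by mean TPM and 0.80 in 20 cells per gate matched on genes detected, of which 3 were Myelo cells. Members 2-fold or more above GMP in CD11b+ GMP-P numbered 0 by mean TPM and 3 in matched cells, and those lower 2 in matched cells and 1 without the Myelo states. Between Myelo-2 and Gran-2 the count was 5 with log2(TPM + 0.1). Between MP and Mono it was 1 by mean TPM, 4 with log2(TPM + 0.1) and 1 with equal medians of widely detected genes. The share of cells with a mitotic cyclin was 90% in matched CD11b+ GMP-P and 70% in matched GMP cells, which turns the order of the gates. Above 10 TPM, 25.5% of CD11b+ GMP-P and 40% of GMP cells held an E cyclin, and more than 1 D cyclin was held by 4.26% of CD11b+ GMP-P and 42.2% of GMP cells. The cause was not tested. Over all genes, those 2-fold or more up in CD11b+ GMP-P numbered 212, 661 by mean TPM and 943 in matched cells, 344 with log2(TPM + 0.1), 534 with equal medians and 408 without the Myelo states. Those lower numbered 3044, 4595 with log2(TPM + 0.1), 1121 in matched cells and 1410 without the Myelo states. Between Myelo-2 and Gran-2, 192 genes were up, 798 by mean TPM, 312 with log2(TPM + 0.1) and 1071 with equal medians, and 3756 were down, 2400 with equal medians. By mean TPM, genes down against Mono numbered 2847 in Gran-1 (1803 as reported) and 2563 in MP (1124), and genes up 1509 in Multi-Lin (780). No paired analysis was possible because the gates share no cell numbers, and no replicate could be left out because each gate is 1 sample. Read depth is unknown, so a gene at 0 in a cell was not detected, which does not show that it is absent.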
